A study of Canis lupus familiaris with 4 samples.

Results

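CSMD1, CSMD2, ZNF536, DLGAP2, GRID1, MYT1L, AGAP1, ADARB2, CDH4 and PTPRN2 are the 10 genes that hold the most captured methylated regions in the canine lymphoma line CLBL-1. They were chosen by that number, about 80 or more regions each, out of 21789 genes named in the region lists of the 2 lines studied. All 10 are present in both lists. They hold 1076 of the 123421 regions of CLBL-1 8.0 and 1120 of the 82247 regions of CLBL-1. Their region numbers are therefore given as a description, and so is any measure built on the CLBL-1 number, such as the ratio between the lines.

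CLBL-1 8.0 is a doxorubicin-resistant derivative of CLBL-1, grown in medium with 8 µM doxorubicin hydrochloride. CLBL-1 is the control, labelled as not chemoresistant and grown in the same medium without the drug. Both are cultured diffuse large B-cell lymphoma cells from a canine lymph node. In MethylCap-seq, a methyl-binding domain protein captures methylated fragments, and each line gave 1 low salt and 1 high salt eluate, sequenced separately. The deposited lists hold 1 set of regions per line, without the eluates apart, so there is no replicate of either line and no test of a difference between them. Intervals below are Wilson or Newcombe 95% intervals for shares and cover counting error only. Neighbouring regions of a gene are not independent of each other.

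DNA methylation is the addition of a methyl group to cytosine, in mammals mostly where a guanine follows (CpG). Most CpG sites outside dense clusters are methylated, whereas the clusters called CpG islands are often free of methylation where they cover a promoter. CpG islands inside gene bodies are more often methylated, and methylation of gene bodies is common in both active and inactive genes. The stretches flanking an island are called its shores. A capture assay needs several methylated CpG sites in a fragment, so it reports best the CpG-dense parts of a methylated gene.

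The 10 genes encode proteins known mainly from the nervous system. CSMD1 and CSMD2 are large transmembrane proteins built from CUB and sushi domains, and CSMD1 regulates complement. GRID1 is a delta-type glutamate receptor subunit, and DLGAP2 is a scaffold of the postsynaptic density. CDH4 is R-cadherin, a cell adhesion protein, and PTPRN2 is a phosphatase-like protein of dense-core secretory vesicles. ZNF536 and MYT1L are zinc-finger transcription factors, the first a repressor of neuronal differentiation and the second a repressor of non-neuronal genes in neurons. ADARB2 belongs to the family of RNA-editing adenosine deaminases but lacks editing activity. AGAP1 is a GTPase-activating protein for Arf proteins that acts in endosomal traffic. Expression was not measured in these data.

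CSMD1 held 157 regions in CLBL-1 8.0 and 148 regions in CLBL-1, the highest number of any gene in both lists. DLGAP2 held 126 and 123, GRID1 held 117 and 122, and ZNF536 held 108 and 123. CSMD2 held 102 and 105, and MYT1L held 99 and 108. PTPRN2 held 94 in CLBL-1 8.0 and 81 in CLBL-1, and ADARB2 held 93 and 103. AGAP1 held 91 and 106, and CDH4 held 89 and 101. The number was higher in CLBL-1 8.0 for 3 of the 10, CSMD1, DLGAP2 and PTPRN2, and lower for the other 7.

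The ratio of region numbers, CLBL-1 8.0 over CLBL-1, lay between 0.858 for AGAP1 and 1.16 for PTPRN2, with a median of 0.938 over the 10 genes. The whole lists had a ratio of 1.501, and each of the 10 genes lay below the ratio of its own chromosome, which was between 1.34 and 1.65. Among 250 other genes with at least 20 regions in CLBL-1, the median ratio was 1.09, with quartiles of 0.963 and 1.27, and 27.2% of those genes had a ratio below 1. None of the 10 genes differed by 1.5 times or more in either direction. Of all 260 genes with 20 or more CLBL-1 regions, 10.0% had at least 1.5 times as many regions in CLBL-1 8.0 and 0.00% had at least 1.5 times fewer. Selecting genes for a high CLBL-1 number favours low ratios, so nothing is read from this.

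The last gene inside the limit was PTPRN2, with its 81 CLBL-1 regions. The first outside it was NTM, with 76 regions in CLBL-1 8.0 and 77 in CLBL-1, followed by LIMCH1 with 75 and 76 and GSE1 with 86 and 74. The next were TBC1D22A (73 and 66), LDLRAD4 (78 and 64), TRAPPC9 (92 and 64), ZMIZ1 (64 and 64), CPQ (70 and 62), NAV2 (75 and 62) and RPTOR (62 and 62). In CLBL-1 8.0 the 10 genes ranked between 1 and 13 by number of regions. The other genes among those leading ranks were CDK14 with 100 regions in CLBL-1 8.0 and 4 in CLBL-1, PLXNA4 with 92 and 49, TRAPPC9, and ZNF804B with 89 and 6. These were named after their values were seen.

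**Figure D1:**
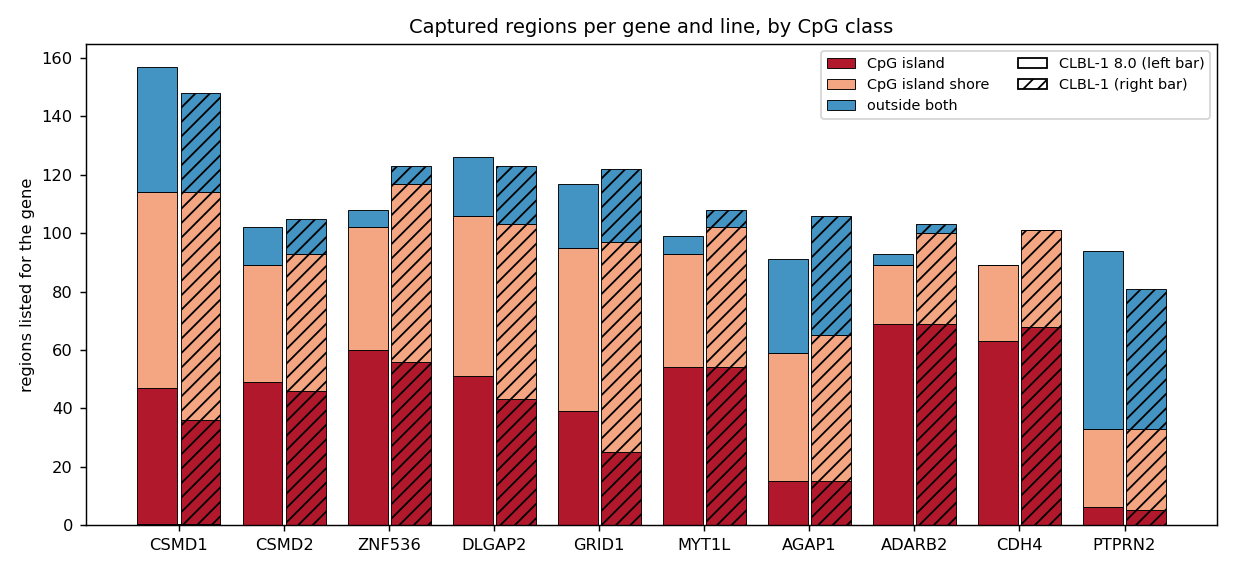
Number of captured regions listed for each of the 10 genes, with CLBL-1 8.0 as the plain left bar and CLBL-1 as the hatched right bar, split by CpG class. ADARB2 and CDH4 are mostly CpG island regions in both lines, PTPRN2 is mostly regions outside islands and shores, and the 2 bars of a gene differ little in height.

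Most regions of these genes lay in or beside CpG islands, more often than regions elsewhere. By the flags of the lists, 42.1% of the member regions in CLBL-1 8.0 (39.2 to 45.1) and 37.2% in CLBL-1 (34.4 to 40.1) met a CpG island. All other regions met one in 9.96% of cases in CLBL-1 8.0 and 13.6% of cases in CLBL-1. The difference was 32.1 percentage points in CLBL-1 8.0 (29.2 to 35.1) and 23.6 points in CLBL-1 (20.8 to 26.5). Shores held a further 38.7% of the member regions in CLBL-1 8.0 and 45.4% in CLBL-1. Only 19.2% in CLBL-1 8.0 and 17.4% in CLBL-1 lay outside both, against 62.9% and 47.3% of all other regions. Genes next in CLBL-1 number, from NTM to ABCA13 and RNLS, varied widely in island share. It ran from 4.35% for TRAPPC9 to 56.6% for ABCA13 in CLBL-1 8.0. In CLBL-1 it ran from 4.55% for TBC1D22A to 48.3% for ABCA13. RNLS had 50% and 42.1%, CPQ 32.9% and 25.8%, and GSE1 8.14% and 8.11%. A high island share was thus not particular to the 10 genes.

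The same held among introns. Introns carried 93.6% of the member regions in CLBL-1 8.0 and 93.8% of those in CLBL-1. Of these intronic regions, 42.3% in CLBL-1 8.0 and 37.1% in CLBL-1 met an island, against 7.08% and 11.2% of the intronic regions of other genes. The differences of 35.2 points (32.2 to 38.3) and 26.0 points (23.1 to 28.9) were as large as those over all regions.

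The 10 genes differed widely in CpG class. The island share was 74.2% in CLBL-1 8.0 and 67.0% in CLBL-1 for ADARB2, and 70.8% and 67.3% for CDH4, which had 0 regions outside islands and shores in either line among 89 and 101. ZNF536 had 55.6% and 45.5%, MYT1L 54.5% and 50%, and CSMD2 48.0% and 43.8%. These 5 genes had the highest island shares of the 10, and their regions also spanned the 5 shortest stretches.

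DLGAP2 had an island share of 40.5% in CLBL-1 8.0 and 35.0% in CLBL-1, GRID1 33.3% and 20.5%, and CSMD1 29.9% and 24.3%. AGAP1 had 16.5% and 14.2%. PTPRN2 had only 6.38% in CLBL-1 8.0 (2.96 to 13.2) and 6.17% in CLBL-1 (2.67 to 13.6), the one member below the share of all other regions in both lines. Of its regions, 64.9% in CLBL-1 8.0 and 59.3% in CLBL-1 lay outside islands and shores. The pooled shares thus do not describe PTPRN2.

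The island share was higher in CLBL-1 8.0 than in CLBL-1 for all 10 genes. Pooled over the genes the difference was 4.87 percentage points (0.776 to 8.94), while all other regions differed by -3.66 points. The share outside islands and shores differed by 1.83 points in the 10 genes (-1.41 to 5.07) and by 15.7 points in all other regions. Numbers of island regions were 453 in CLBL-1 8.0 and 417 in CLBL-1, and numbers of shore regions 416 and 508. The number of island regions was equal in both lines in ADARB2 (69), MYT1L (54) and AGAP1 (15). In CDH4 it was lower in CLBL-1 8.0, at 63 against 68. The higher island share of these genes thus went with fewer regions in total. In the other members the number was higher in CLBL-1 8.0, in PTPRN2 by 6 against 5. Among all other regions, those that overlap a region of the other list differed by 2.26 points (1.91 to 2.62). Those in 1 list only differed by -18.9 points (-19.8 to -17.9). In the 10 genes these differences were 7.50 and -13.05 points. Of the genes next in CLBL-1 number, from NTM to RNLS, the island share was lower in LIMCH1, LDLRAD4, TRAPPC9 and RPTOR and higher in the rest. A higher share was thus not particular to the 10 genes. How many of all other genes had one was not counted.

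Some overlapping regions carried a different flag in each line. Among 847 one-to-one pairs of overlapping member regions, 744 (87.8%) had the same CpG class in both lists. In 74 pairs the region was flagged island in CLBL-1 8.0 and shore in CLBL-1, and 25 pairs had the opposite order. Of the 74, 67 were shorter in CLBL-1 8.0, and of the 25, 7 were. Over all 847 pairs, 585 were shorter in CLBL-1 8.0. The lists give no rule for flagging a region that reaches across an island's edge.

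The fold enrichment of the member regions was low. It is the authors' value for each region within its own list, with a lower limit of 2 in both. The median was 3.51 in CLBL-1 8.0 and 3.72 in CLBL-1, against 5.06 and 6.004 for all other regions. Every one of the 10 genes had a median below that of all other regions in both lines, from 2.72 for CDH4 to 4.59 for AGAP1 in CLBL-1 8.0 and from 2.63 for CDH4 to 5.42 for AGAP1 in CLBL-1. How many other genes had such a low median was not counted, so it is not shown to be particular to the 10 genes. Folds below 3 made up 34.0% of the member regions in CLBL-1 8.0 and 33.9% in CLBL-1, against 10.4% and 9.86% of all other regions.

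Low folds went together with islands. Island regions of the 10 genes had a median fold of 2.81 in CLBL-1 8.0 and 2.76 in CLBL-1, shore regions 3.76 and 4.06, and regions outside both 4.42 and 5.22. Within each of these classes the median of all other regions was higher, at 3.41 and 3.64 for islands, 5.16 and 6.53 for shores, and 5.06 and 6.31 outside both. The lower fold of the 10 genes was thus present within each CpG class as well.

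**Figure D2:**
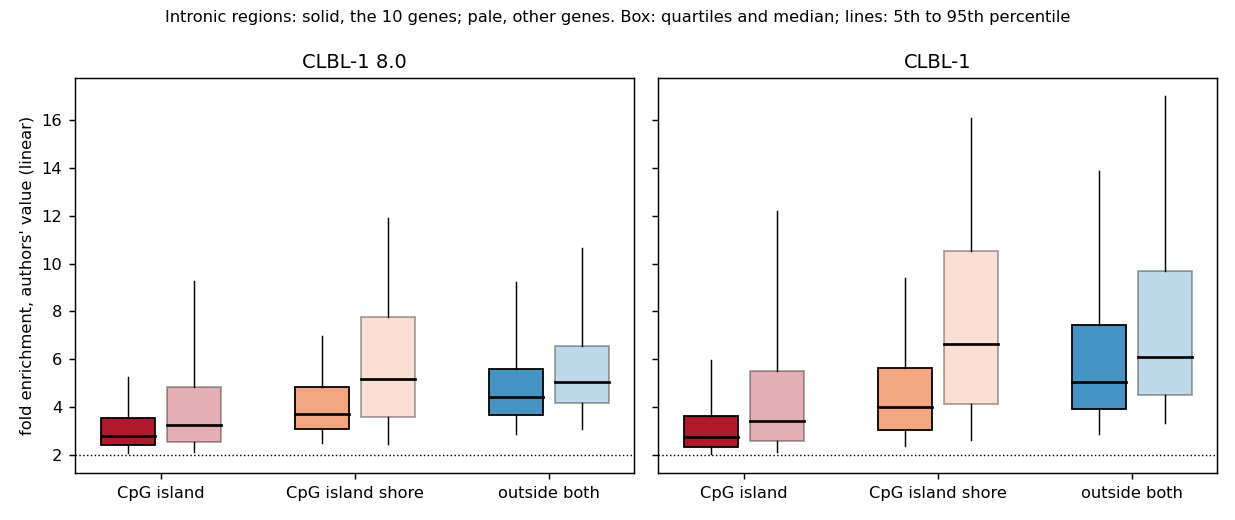
Fold enrichment of intronic regions by CpG class, CLBL-1 8.0 on the left and CLBL-1 on the right, for the 10 genes (solid) and for other genes (pale), as median, quartiles and 5th to 95th percentile. The median of the 10 genes is below that of other genes in every class, and islands lie closest to the dotted line at a fold of 2.

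The number of regions in these genes rested largely on low folds. Above 5.28, the median fold of both lists pooled, 174 member regions remained in CLBL-1 8.0 and 273 in CLBL-1, or 16.2% and 24.4% of them, against 45.3% and 57.9% of all other regions. Counting only these, 2 of the 10 genes were among the 10 genes with the most regions in CLBL-1 8.0 and 4 in CLBL-1. CSMD1 kept 41 and 62 such regions and ranked 2 and 1. AGAP1 kept 34 and 55, PTPRN2 31 and 42, and DLGAP2 23 and 36. GRID1 kept 17 and 30, MYT1L 15 and 19, CSMD2 6 and 17, and ZNF536 5 and 6. ADARB2 kept 2 in CLBL-1 8.0 and 4 in CLBL-1, and CDH4 0 of 89 and 2 of 101.

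Above this fold the island share of the 10 genes was 13.2% in CLBL-1 8.0 (8.97 to 19.1) and 12.5% in CLBL-1 (9.05 to 16.9). All other regions above it met an island in 5.25% and 6.84% of cases. The share outside islands and shores was 37.9% and 34.1%, against 65.7% and 51.3% of all other regions. The 10 genes remained richer in islands, by a much smaller difference. Folds of 1 list are not on the scale of the other, so a common limit removes different parts of each.

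A region is called shared here if it overlaps a region of the other list by 1 bp or more. Of the member regions in CLBL-1 8.0, 943 of 1076 (87.6%, 85.5 to 89.5) met a CLBL-1 region, where 61.6% of the whole list did. Of those in CLBL-1, 918 of 1120 (82.0%, 79.6 to 84.1) met a CLBL-1 8.0 region, where 91.0% of the whole list did. Intronic regions of other genes were shared in 53.7% of cases in CLBL-1 8.0 and 90.8% in CLBL-1.

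Each of the 10 genes lay above its list's share in CLBL-1 8.0 and below it in CLBL-1. In CLBL-1 8.0 the share ran from 63.8% for PTPRN2 (53.8 to 72.8), whose interval includes the list's value, through 86.0% for CSMD1 to 94.9% for GRID1. In CLBL-1 it ran from 74.1% for PTPRN2 (63.6 to 82.4) to 88.6% for DLGAP2 (81.8 to 93.1). The CLBL-1 intervals of CSMD1 and DLGAP2 include the list's value. The CLBL-1 number of regions, by which the genes were chosen, enters both shares. The CLBL-1 8.0 list was also limited to as many regions as the CLBL-1 list, those with a fold of 4.23 or more. The 10 genes then kept 339 regions in CLBL-1 8.0, of which 90.6% were shared, and 27.9% of their CLBL-1 regions met one. This limit removes member regions for their low folds. The shares of all other regions at this limit were not computed, so nothing is read from these values.

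**Figure D3:**
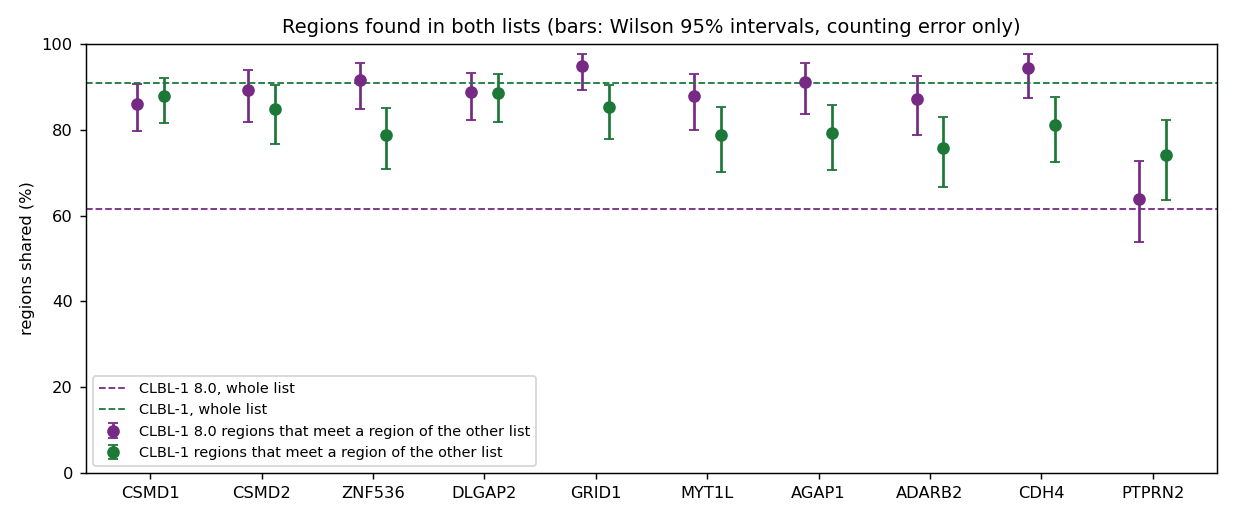
Share of each gene's regions that meet a region of the other line's list, in percent, for CLBL-1 8.0 (purple) and CLBL-1 (green), with Wilson 95% intervals and dashed lines for the whole lists. All purple points but that of PTPRN2 lie far above the 61.6% line, and all green points lie below the 91.0% line.

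By CpG class, 92.5% of island regions, 92.5% of shore regions and 67.1% of regions outside both were shared in CLBL-1 8.0. All other regions of that list were shared in 93.7%, 86.3% and 45.4% of cases, so islands were shared about equally often and regions outside islands more often in the 10 genes. In CLBL-1 the member shares were 81.3% for islands, 86.0% for shores and 72.8% outside both, against 86.7%, 93.1% and 90.8% for all other regions.

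Sharing in CLBL-1 went with fold. Among CLBL-1 regions below a fold of 3, 69.2% of the member regions and 68.1% of all others were shared. From 3 to 5 the shares were 85.2% and 85.6%, and from 5 upwards 93.2% and 97.4%. In CLBL-1 8.0 the member regions were shared more often in each of these ranges, at 85.5%, 86.9% and 93.2%, against 71.7%, 50.2% and 67.5% of all others.

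Regions found in 1 list only numbered 133 for CLBL-1 8.0 and 202 for CLBL-1. Of the 133, 51.1% lay outside islands and shores and 25.6% met an island, against 88.8% and 1.62% of the other regions found only in CLBL-1 8.0. Of the 202, 26.2% lay outside and 38.6% met an island, against 48.8% and 20.5% of the other regions found only in CLBL-1. The member regions among these were short, with median lengths of 306 bp in CLBL-1 8.0 and 352 bp in CLBL-1, against 536 bp and 605.5 bp for shared member regions. Other regions found in 1 list only were also short, at 315 bp and 340 bp. Median folds of the member regions in 1 list only were 3.35 in CLBL-1 8.0 and 2.77 in CLBL-1, against 3.55 and 3.91 for shared ones. The fold was thus only slightly lower in CLBL-1 8.0. PTPRN2 contributed 34 of the 133 and 21 of the 202.

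**Figure D4:**
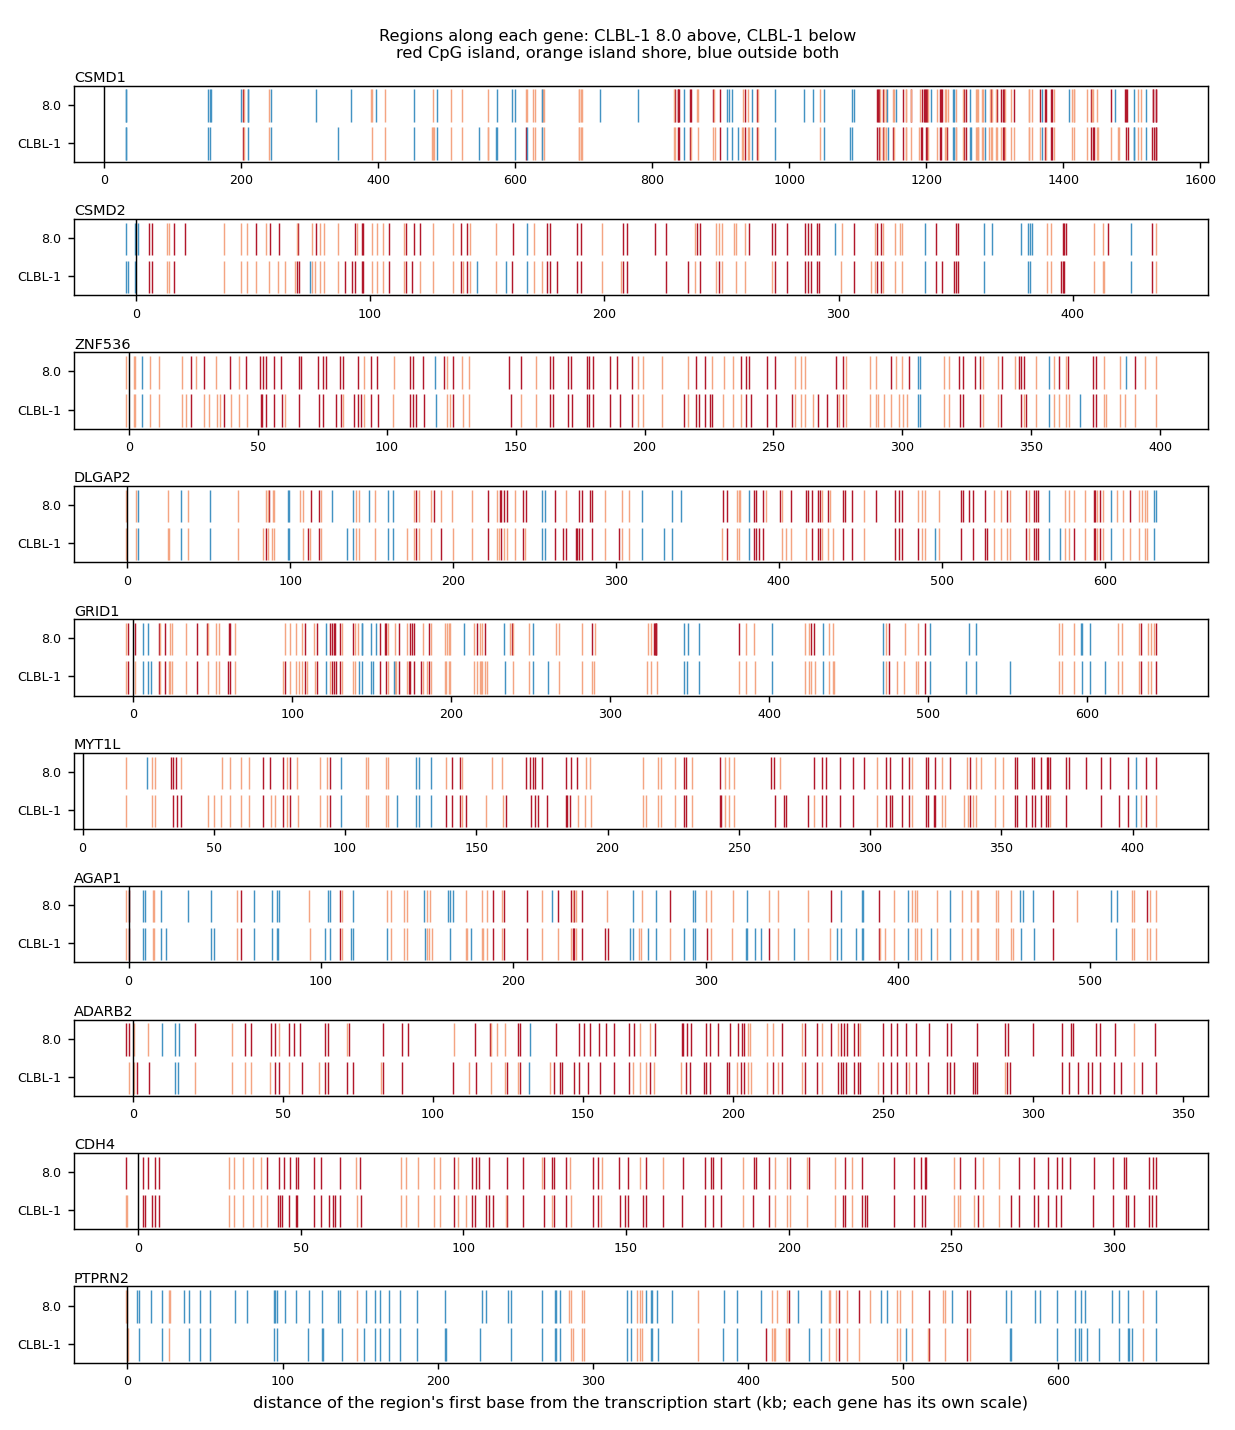
Position of every region of the 10 genes by distance from the gene's transcription start (vertical line at 0), in kb, with CLBL-1 8.0 in the upper track and CLBL-1 in the lower track of each panel, and red, orange and blue for CpG island, shore and outside both. The tracks of a gene resemble each other, CSMD1 is crowded in its far part, and PTPRN2 is blue along most of its length.

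Gene lengths were not used here, so the span of a gene's regions stands in for its extent. From the first to the last region of either list the stretch was 318 kb in CDH4, 344 kb in ADARB2, 393 kb in MYT1L and 400 kb in ZNF536. It was 441 kb in CSMD2, 536 kb in AGAP1, 633 kb in DLGAP2, 649 kb in GRID1, 665 kb in PTPRN2 and 1504 kb in CSMD1. Density ran from 10.4 regions per 100 kb in CSMD1 to 28.0 in CDH4 in CLBL-1 8.0, and from 9.84 in CSMD1 to 31.8 in CDH4 in CLBL-1. CSMD1, with the longest such stretch, thus had the most regions and the lowest density.

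The neighbourhood was dense as well. All regions in a member's stretch, whatever gene they were assigned to, were denser than on the rest of its chromosome, 2.07 to 4.78 times in CLBL-1 8.0, against 2.82 to 7.67 times in CLBL-1. Against the 500 kb on either side the ratio was 1.05 to 1.73 in CLBL-1 8.0, against 1.11 to 2.04 in CLBL-1, above 1 for all 10 genes in both lines. The genes were chosen for many regions, and each stretch runs between a gene's own regions. Ratios above 1 therefore follow from the choice. MYT1L had 23.4 regions per 100 kb in its flanks in CLBL-1 8.0 and 25.9 in CLBL-1, and CDH4 25.2 and 27.4. High numbers were therefore not confined to the gene itself. The last DLGAP2 region ends 0.0553 Mb before the end of the last region of chromosome 37. The MYT1L region nearest the start of chromosome 17 lies 0.916 Mb from it, at the far end from the transcription start of MYT1L.

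The median distance between midpoints of neighbouring regions was 3.44 kb in CLBL-1 8.0 (3.09 to 3.83, from order statistics) and 3.06 kb in CLBL-1 (2.74 to 3.28). In the 250 other genes with at least 20 CLBL-1 regions it was 4.43 kb and 4.38 kb. The selection by number bears on these distances, since more regions in a stretch lie closer. The median distance was wider in CLBL-1 8.0 than in CLBL-1 in all 10 genes, of which 7 held fewer regions in CLBL-1 8.0. How many of the 250 other genes had a wider one was not counted, so nothing is read from this. ADARB2 had 2.70 kb in CLBL-1 8.0 and 2.24 kb in CLBL-1, CDH4 2.79 kb and 2.15 kb, and PTPRN2, the widest, 5.97 kb and 5.78 kb.

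Distances under 1 kb were 9.76% of the total in CLBL-1 8.0 and 10.9% in CLBL-1, about as in the other genes with 9.71% and 9.13%. Distances over 20 kb were 3.28% and 3.69%, against 6.04% and 7.46% in the other genes. The coefficient of variation of the distances was above 1 in CSMD1, at 1.59 in CLBL-1 8.0 and 1.88 in CLBL-1, and in GRID1, at 1.40 and 1.26. In the other 8 genes it was below 1, with ZNF536 the most even at 0.697 and 0.728. The median over the 10 genes was 0.827 in CLBL-1 8.0 and 0.919 in CLBL-1, near the 0.870 and 0.886 of the other genes.

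**Figure D5:**
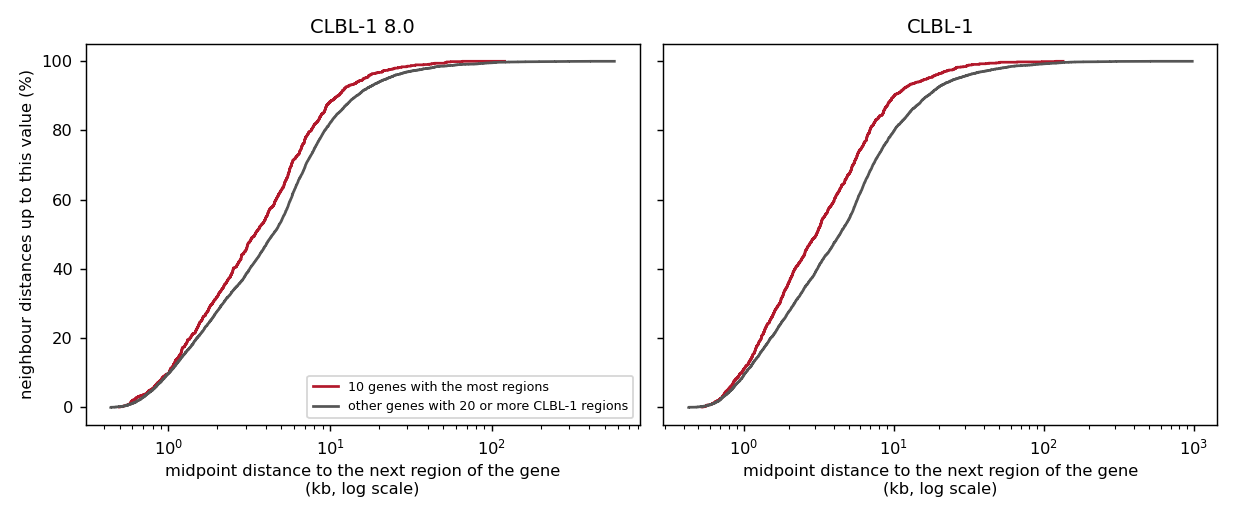
Cumulative share of distances between midpoints of neighbouring regions (kb, log scale), CLBL-1 8.0 on the left and CLBL-1 on the right, for the 10 genes (red) and 250 other genes with at least 20 CLBL-1 regions (grey). The curves run together below 1 kb, and the red curve then lies to the left in both lines.

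CSMD1 was the most uneven. Past the midpoint between its start and its farthest region lay 117 of 157 regions in CLBL-1 8.0 and 112 of 148 in CLBL-1. Of 10 equal parts of the gene, part 9 held 34 and 37 regions, and part 1, next to the start, held 3 and 3. The near edge of its closest region to the transcription start lay 31175 bp away in CLBL-1 8.0 and 31116 bp in CLBL-1. Its widest distance was 120 kb in CLBL-1 8.0, centred 92.7 kb from the start, and 134 kb in CLBL-1, centred 765 kb from it. The other line had 2 and 3 regions in these spaces. The highest fold of all member regions was in its intron on chromosome 16, at 56221283 to 56221723 with a fold of 18.7 in CLBL-1 8.0 and 56221274 to 56221752 with 19.9 in CLBL-1, outside islands and shores. All coordinates are on CanFam3.1, as the lists give them.

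CSMD2 had 49 of 100 regions before the midpoint between its start and its farthest region in CLBL-1 8.0 and 56 of 102 in CLBL-1. A region met its transcription start on chromosome 15 in both lines, at 7753773 to 7754086 with a fold of 4.31 in CLBL-1 8.0 and 7753793 to 7754149 with 5.50 in CLBL-1. A further promoter region at 7750665 to 7751029, with a fold of 6.16, was listed in CLBL-1 only. An intronic region at 7754804 to 7755521, with a fold of 3.91, was listed in CLBL-1 8.0 only.

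GRID1 leaned towards its start, with 72 of 115 regions before that midpoint in CLBL-1 8.0 and 77 of 120 in CLBL-1. In its intron on chromosome 4, outside islands and shores, the strongest region was 33753697 to 33754077 with a fold of 11.7 in CLBL-1 8.0 and 33753577 to 33754191 with 19.2 in CLBL-1. The region flagged at its transcription start in CLBL-1, 34154420 to 34155748 with a fold of 7.68, had a counterpart at 34154474 to 34155344 with 6.81 in CLBL-1 8.0. That counterpart was shorter and ended before the start at 34155573, so it was flagged neither promoter nor start. The lines thus differ there in region length, not in the presence of a region. The strongest GRID1 region in CLBL-1 only was at 33543879 to 33544507, with a fold of 13.9, the highest of any member region found in 1 list only.

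DLGAP2 had a region across its start in both lines on chromosome 37, at 30213649 to 30215479 with a fold of 5.08 in CLBL-1 8.0 and 30213615 to 30215481 with 5.26 in CLBL-1, in an island shore. An enhancer flag was carried downstream of the gene by 30845008 to 30845479 with a fold of 3.96 in CLBL-1 8.0 and by 30844883 to 30845595 with 10.2 in CLBL-1. Its widest distance was 26.4 kb in CLBL-1 8.0 and 31.5 kb in CLBL-1.

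CDH4 had the lowest highest fold, 5.02 in CLBL-1 8.0 and 5.83 in CLBL-1. Its regions covered 17.9% of its stretch in CLBL-1 8.0 and 22.7% of it in CLBL-1, the highest covered shares of the set. PTPRN2 had 6.74% and 6.67% of its stretch covered. PTPRN2 had promoter regions on chromosome 16 in both lines, and a region across its transcription start, 20562457 to 20562882 with a fold of 2.51, was listed in CLBL-1 only. Its strongest region was intronic, at 20394270 to 20394954 with a fold of 12.2 in CLBL-1 8.0 and 20394307 to 20394979 with 15.7 in CLBL-1.

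Of the zinc-finger genes, ZNF536 had 53 of 107 regions before the midpoint in CLBL-1 8.0 and 59 of 122 in CLBL-1, and its widest distance was 15.01 kb and 15.38 kb, around the same place. Its strongest region was intronic on chromosome 1 in CLBL-1 8.0, at 121167593 to 121168289 with a fold of 9.15, and lay in the 3′ untranslated region in CLBL-1, at 120975923 to 120976492 with 14.8. The near edge of the MYT1L region closest to its start lay 15709 bp away in CLBL-1 8.0 and 15667 bp in CLBL-1. That region was its strongest in both lines, on chromosome 17 at 1308936 to 1309626 with a fold of 12.4 in CLBL-1 8.0 and 1308907 to 1309668 with 15.03 in CLBL-1.

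ADARB2 had 2 promoter regions in CLBL-1 8.0 and 1 such region in CLBL-1. The one at 33507728 to 33508033 on chromosome 2, a CpG island region with a fold of 2.22, was listed in CLBL-1 8.0 only. Folds below 3 made up 62 of its 93 regions in CLBL-1 8.0 and 64 of 103 in CLBL-1. In AGAP1 they made up 7 of 91 and 6 of 106. AGAP1 had a promoter region in both lines on chromosome 25, at 46448165 to 46448650 with a fold of 7.32 in CLBL-1 8.0 and 46448145 to 46448650 with 6.51 in CLBL-1.

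Promoters were a small part of the whole. The promoter flag was carried by 9 member regions in CLBL-1 8.0, in 7 genes, and by 10 in CLBL-1, in 8 genes. That was 0.836% and 0.893% of the member regions, against 10.2% and 12.3% of all other regions. The lists give each of the 10 genes 1 transcription start, and the genes were chosen for many regions. Low promoter and start shares therefore follow from the choice, and nothing is read from them. Transcription starts were met by 2 and 4 regions and annotated enhancers by 3 and 3. Starts thus took 0.186% of the member regions in CLBL-1 8.0 and 0.357% in CLBL-1, against 3.47% and 5.19% of all other regions. Enhancers took 0.279% and 0.268%, against 5.11% and 5.10%. Neither CSMD1 nor MYT1L had a promoter region in either line. Coding sequence held 2.88% of the member regions in CLBL-1 8.0 and 2.68% in CLBL-1, against 7.55% and 8.34% of all others. Of the member regions 0 were intergenic in either line, against 29.7% and 31.3% of all others. The 2 sets are thus unlike in location by the choice of genes, and nothing is read from the enhancer and coding shares either. With each gene cut into 10 equal parts, the part next to the start held 7.89% of the regions in CLBL-1 8.0 and 7.58% in CLBL-1, and the farthest part 11.6% and 11.2%.

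The 10 genes were chosen for their numbers, so other genes hold fewer by that rule. The 12 relatives examined, among them CSMD3, DLGAP1, MYT1 and ADARB1, held 139 regions in CLBL-1 8.0 and 107 in CLBL-1. Their island shares were 19.4% (13.7 to 26.8) and 22.4% (15.6 to 31.2), and 73.4% and 92.5% of their regions were shared. The highest numbers were 28 for DLGAP1 in CLBL-1 8.0 and 23 for ADARB1 in CLBL-1. Some relatives resembled the 10 genes in CpG class. ADARB1 had 45% of 20 regions in islands in CLBL-1 8.0 and 39.1% of 23 in CLBL-1, and MYT1 had 42.1% of 19 and 46.2% of 13. DLGAP1 had no island region among its 28 and 11. Relatives with shorter spans were also as dense or denser, with 28.2 regions per 100 kb in CLBL-1 8.0 and 19.3 in CLBL-1 for MYT1, 25.9 and 25.9 for DLGAP3, and 45.3 and 35.6 for AGAP3. In CSMD3 the density was 0.651 and 0.814. Median folds were low in some relatives too, at 2.90 in CLBL-1 8.0 and 2.75 in CLBL-1 for ADARB1 and 2.84 and 3.36 for AGAP3. They were higher in others, at 7.04 and 6.46 for CSMD3 and 5.35 and 7.95 for DLGAP1.

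Of 28 other long genes, many but not all of them neural, 27 had a region. They held 576 regions in CLBL-1 8.0 and 307 in CLBL-1, a ratio of 1.88. The most were 72 in AUTS2 in CLBL-1 8.0 and 34 in WWOX in CLBL-1. Only 3.30% of these regions in CLBL-1 8.0 (2.12 to 5.09) and 7.17% in CLBL-1 (4.78 to 10.6) met an island, and 82.5% and 66.8% lay outside islands and shores. Of their regions, 48.3% in CLBL-1 8.0 and 91.9% in CLBL-1 were shared. The number was higher in CLBL-1 8.0 for 24 of the 27 genes and lower for 1. PTPRN2 was the one of the 10 genes nearest to this pattern in CpG class.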

How the data were processed

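Genomic DNA of 2 lines was measured by MethylCap-seq, with 4 libraries and 150 bp paired-end reads, per the labels' protocols. BWA, MACS2 and CanFam3.1 are named, per the submitters' processing notes, without versions, roles or settings. The authors deposited 1 region list per line. Its value is a linear fold, a ratio per region, per the file headers. The background of that ratio, the read depth, the joining of the eluates and whether positions start at 0 or 1 are not given in the sources used here, so no limit of detection can be stated. Rows with displaced cells (6 in CLBL-1 8.0, 2 in CLBL-1) were kept without a gene. The number of unused per-sample columns was 0.

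Rows were matched by gene name, and lengths count both ends. Shares carry Wilson intervals and differences Newcombe intervals at the 95% level (statsmodels 0.14.6). Python 3.11.15, numpy 2.4.6, pandas 2.3.3, scipy 1.17.1 and matplotlib 3.10.9 were used, and the functions were tested on simulated data. Named were the 10 genes, the next 10 by CLBL-1 number, and ABCA13 and RNLS, which follow these. List genes with a printed count were named too. The regions and distances printed are a selection from each gene's strongest, promoter, start and enhancer regions, regions in 1 list only and widest distances. Not all of these are printed for every gene. Members and lists were chosen with earlier results of these data known. From the list of relatives, 1 gene is not reported here.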

Additional observations from a re-analysis of the deposited data

How the results depend on the processing

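Of the alternative values, 30 stayed within the counting interval of the reported value (for numbers and their ratio, within 1.5 times) and 38 did not. Above the pooled median fold of 5.28 the members kept 174 regions in CLBL-1 8.0 and 273 in CLBL-1 (ratio 0.637), with island shares of 13.2% and 12.5%, shares outside islands and shores of 37.9% and 34.1%, 57.1% of the CLBL-1 regions shared, and median distances of 16.5 kb and 10.6 kb. Regions in 1 list only then lay outside in 77.3% and 36.8% of cases and in islands in 4.55% and 14.5%. With equal list lengths, which leaves out CLBL-1 8.0 folds below 4.23, CLBL-1 8.0 kept 339 member regions (ratio 0.303), 16.2% in islands, 35.7% outside, 10.1 kb apart, and 90.6% of the CLBL-1 8.0 and 27.9% of the CLBL-1 regions were shared. Sharing of all other regions was not computed at either limit. Counting covered bases gave 14.0% and 12.8% outside and 40.9% in islands in CLBL-1. Requiring both regions to be covered by 50% gave 77.5% and 74.6% shared. Median distances were 2.84 kb and 2.36 kb from edge to edge, and 5.24 kb and 5.12 kb after joining regions under 1000 bp apart.

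Leaving out 1 member at a time gave island shares of 39.1% (without ADARB2) to 45.5% (without PTPRN2) in CLBL-1 8.0 and 34.2% to 39.7% (the same genes) in CLBL-1. Shares outside were 14.9% (without PTPRN2) to 21.0% and 14.1% (without PTPRN2) to 19.1%, and shared regions 86.8% to 89.9% (without PTPRN2) and 81.1% to 82.6%. Of regions in 1 list only, 40.4% (without PTPRN2) to 55.4% lay outside and 19.8% to 34.3% (without PTPRN2) met an island in CLBL-1 8.0. In CLBL-1 these ranges were 21.0% to 29.9% and 33.9% to 42.8%.

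No paired analysis was possible because each line has 1 list, with its eluates together, and no result comes from a test. Libraries could not be left out for the same reason. The read depth is unknown, so a region missing from a list was not shown to be unmethylated, and regions near a fold of 2 limit most of these counts.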
